A study of Mus musculus with 48 samples.

Results

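The intermediate filament genes of astrocytes, Gfap, Vim, Nes and Synm, were examined in the cortex and hippocampus of APP/PS1 mice and WT littermates that drank H2O or MSX-3. All probes annotated to these genes were taken, each on its own, which gave 6 of the 56605 probes of the array and 4 of its 22911 named genes. Gfap was covered by A_52_P52303, annotated to the transcript NM_001131020, and A_55_P2157250, annotated to NM_010277. Vim was covered by A_51_P392687 and Nes by A_51_P452323. Synm was covered by A_51_P404875, annotated to NM_201639, and A_55_P2052699, annotated to NM_183312. The probe sequences were not used here, so whether both probes of a gene read separate transcripts is unknown.

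Intermediate filaments give astrocytes their internal scaffold. GFAP and vimentin build the filament, and nestin and synemin join it only together with such a partner. Astrocytes around amyloid plaques become reactive, and a rise of GFAP, often with vimentin, is the usual mark of that state. Vim is also used by vascular, meningeal and ependymal cells and by activated microglia, and Nes by neural progenitors and endothelium.

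The mice were male and heterozygous for APPswe/PS1dE9, a model in which a mutant APP and a mutant presenilin are expressed from a Prnp-based vector, or were their WT littermates on the same C57Bl6/J background. MSX-3 is the water-soluble prodrug of MSX-2, an adenosine receptor antagonist, and was given at 0.3 g/L in the drinking water until 9 to 10 months of age. The sample labels give 3 months as the start of the treatment and the text on the series gives 4 months. WT and APP/PS1 mice on H2O and on MSX-3 made up 4 sets of 6 mice, and cortex and hippocampus of each of the 24 mice were put on 1 array each, which gave 8 groups.

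Of the 48 arrays, 46 were readable. No grid was located on the cortex arrays of WT H2O mouse 310 and WT MSX-3 mouse 298, which were left out, so that both WT cortex groups held 5 arrays. On the readable arrays, 55.8% to 75.5% of the spots were well above background, and the 75th percentile of the intensities ran from 531 to 1073. Levels are given as log2 intensity minus this percentile of the same array, so that 0 is the 75th percentile and a step of 1 is a doubling. They compare 1 probe between arrays and say nothing of one probe against another. The number of arrays limits the precision. The genotype labels were checked on Prnp, whose sequence is part of the transgene vector: the lowest APP/PS1 array was above the highest WT array by 1.72 in the cortex and 1.40 in the hippocampus (log2). Cux2, a gene of the upper cortical layers, was higher on all 22 cortex arrays than on any hippocampus array, and Prox1, a gene of dentate granule cells, was higher on all 24 hippocampus arrays than on any cortex array. The 7 slides were scanned on 2 days, and the groups were spread unevenly over the slides and days. In the MSX-3 cortex no slide held readable arrays of both genotypes, so slide and genotype cannot be told apart there. On H2O only slide 5 of the cortex arrays and slides 2 and 5 of the hippocampus arrays held both genotypes. Genotype fits with the slide as a block rest on such shared slides. Differences within a day are given for some of the results.

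The sequence around the annotated gene start is shown for the 4 genes as a description and was not linked to their levels. The STAT motif was among those searched because STAT3 is a known activator of Gfap. Each line holds 250 bases before and 30 after the start of the RefSeq gene on GRCm38.p6, 5′ to 3′ on the strand of the gene. Capitals mark matches on either strand. The STAT motif was searched as TTCNNNGAA. The AP-1 motif was searched as TGANTCA. The TATA box was searched as TATAAA, and the CCAAT box by its own letters. The palindrome of NF-I was searched as well, and no matches overlapped.
Gfap, chr11:102897171-102897450, minus strand: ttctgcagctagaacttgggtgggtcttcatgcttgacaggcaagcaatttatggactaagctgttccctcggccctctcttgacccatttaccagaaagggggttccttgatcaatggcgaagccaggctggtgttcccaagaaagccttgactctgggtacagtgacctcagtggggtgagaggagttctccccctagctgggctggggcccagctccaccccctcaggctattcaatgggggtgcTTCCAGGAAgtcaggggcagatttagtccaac
Vim, chr2:13574061-13574340, plus strand: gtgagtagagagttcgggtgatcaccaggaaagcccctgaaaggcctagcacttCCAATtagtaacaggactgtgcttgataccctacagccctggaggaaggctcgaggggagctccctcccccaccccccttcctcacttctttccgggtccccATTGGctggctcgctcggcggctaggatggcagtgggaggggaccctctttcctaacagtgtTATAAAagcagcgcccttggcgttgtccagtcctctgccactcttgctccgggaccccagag
Nes, chr3:87970843-87971122, plus strand: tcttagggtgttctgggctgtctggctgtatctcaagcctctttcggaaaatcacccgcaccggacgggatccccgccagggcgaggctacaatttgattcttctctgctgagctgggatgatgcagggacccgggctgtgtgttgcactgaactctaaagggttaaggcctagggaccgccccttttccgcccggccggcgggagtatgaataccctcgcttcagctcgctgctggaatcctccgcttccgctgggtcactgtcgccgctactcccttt
Synm, chr7:67759713-67759992, minus strand: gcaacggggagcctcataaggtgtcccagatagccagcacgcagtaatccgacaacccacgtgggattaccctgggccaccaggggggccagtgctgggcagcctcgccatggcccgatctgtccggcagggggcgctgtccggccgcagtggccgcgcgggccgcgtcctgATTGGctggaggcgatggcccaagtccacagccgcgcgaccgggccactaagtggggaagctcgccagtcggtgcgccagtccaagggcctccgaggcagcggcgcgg

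The Gfap window held the STAT letters as TTCCAGGAA, from 2 bases before the start to base 7 of the gene. Of 32851 RefSeq promoters cut to the same window, 7.83% held these letters. Vim held a TATA box and CCAAT letters at 2 positions, and Synm held CCAAT letters once. The TATA letters were found in 13.1% and the CCAAT letters in 36.1% of the promoters. Nes held none of the 5 motifs. The AP-1 letters, found in 7.46% of the promoters, and the NF-I palindrome, found in 0.0365%, were in none of the 4 windows. A match is a description of the letters only, and sites outside the windows were not searched.

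All 6 probes were well above background on every readable array and none was saturated. The A_55_P2052699 probe of Synm was dim, at an intensity of 36.3 to 147, and its SD within groups reached 0.65.

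In the cortex of H2O mice, the filament-building genes Gfap and Vim rose in APP/PS1 mice, whereas Nes and Synm did not pass the test. By limma, 3 of the 6 probes passed, both of Gfap and that of Vim, all in the upward direction. Over all 37680 probes tested, 1.48% passed, which took a BH adjusted p under 0.05 together with a 1.5-fold change or more. Ranges of the 2 genotypes did not overlap for these 3 probes, as for 2.81% of all probes.

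GFAP is the main filament protein of mature astrocytes. On its probe A_52_P52303 the 5 WT H2O cortex arrays read -0.26, -0.17, -0.13, -0.12 and 0.21, and the 6 APP/PS1 H2O arrays ran from 2.16 over a median of 2.64 to 2.93. All APP/PS1 arrays were far above all WT arrays, by a mean difference of 2.69 ± 0.14 (log2, SE), or 6.47-fold (adjusted p = 1.24e-06). On A_55_P2157250 the WT arrays read -1.02, -0.95, -0.86, -0.75 and -0.69, and the APP/PS1 arrays ran from 1.599 over 2.09 to 2.35. The groups again lay apart, by 2.88 ± 0.15 or 7.37-fold (adjusted p = 1.24e-06). On scan day 2, which held 1 APP/PS1 and 3 WT arrays, the differences were 2.35 and 2.49, and on day 1, with 5 and 2 arrays, they were 2.64 and 3.07.

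Vimentin is the filament protein that astrocytes and many mesenchymal cells share. Its probe read -0.16, -0.05, -0.01, 0.00 and 0.13 on the WT H2O cortex arrays and ran from 0.55 over 0.85 to 1.12 on those of APP/PS1 mice. The difference of 0.89 ± 0.11 (log2, SE) was 1.85-fold (adjusted p = 0.00057), and no APP/PS1 array lay within the WT range. Within day 1 and day 2 it was 0.88 and 0.84. With the slide as a block, the Vim difference of 0.96 no longer passed (adjusted p = 0.0971).

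Nestin, which needs a partner to form filaments, read -1.47, -1.17, -1.15, -1.03 and -0.82 in WT H2O cortex and ran from -1.36 over -1.01 to -0.89 in APP/PS1 H2O cortex. The groups overlapped, and the difference of 0.08 had a 95% confidence interval from -0.19 to 0.34 (adjusted p = 0.826). Synemin links the filaments to anchoring proteins. Its A_51_P404875 probe read 0.49, 0.57, 0.69, 0.77 and 0.85 in WT mice and from 0.48 over 0.75 to 0.90 in APP/PS1 mice. The ranges nearly coincided, and the interval of the difference, 0.06, ran from -0.15 to 0.27 (adjusted p = 0.826). The dim probe of Synm gave 0.12 with an interval from -0.50 to 0.74. Its sign turned with the scan day, from 0.77 with overlap within day 1 to -0.76 within day 2, where the 1 APP/PS1 array was below the 3 WT arrays.

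**Figure D1:**
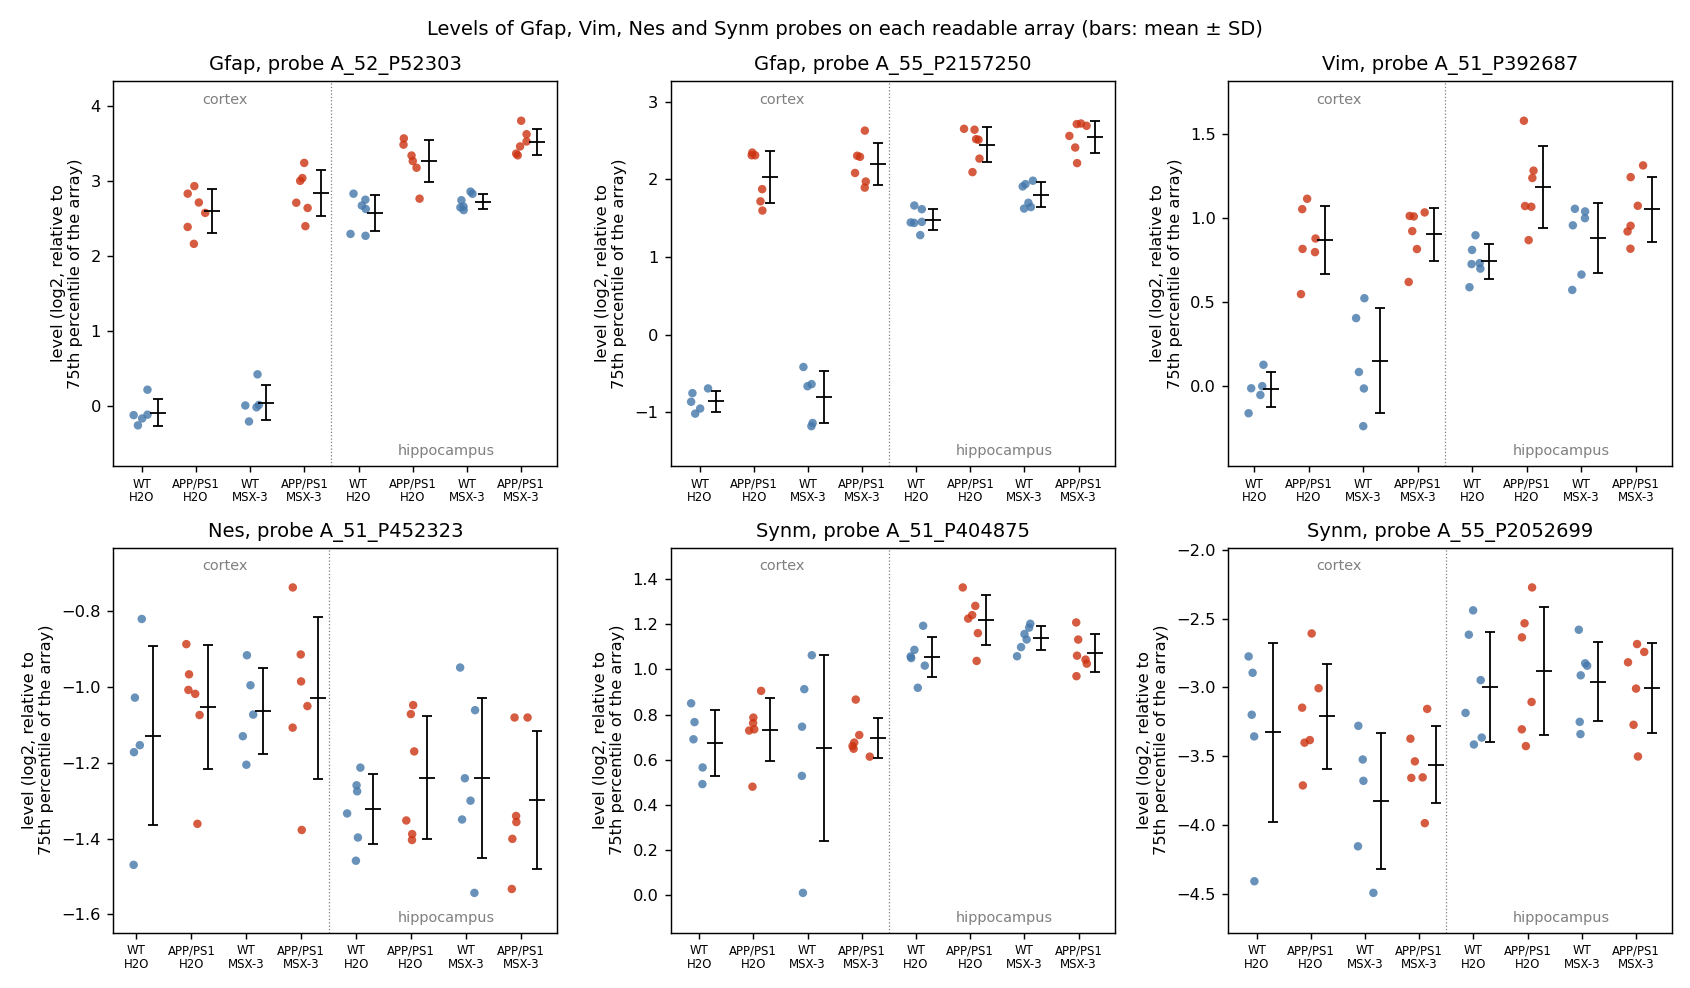
Level of each of the 6 probes (vertical axis, log2 relative to the 75th percentile of the array) on every readable array, by tissue, genotype (blue WT, red APP/PS1) and agent, with mean and SD as bars. Both Gfap probes and Vim separate the genotypes in the cortex, with Gfap A_52_P52303 at a mean of -0.10 in WT H2O and 2.60 in APP/PS1 H2O mice, and the Nes and Synm probes do not.

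In the cortex of MSX-3 mice, the 3 probes of Gfap and Vim rose again and the other 3 did not pass, against 1.42% of all probes called. The 2 genotypes did not overlap for Gfap and Vim, as for 3.02% of all probes. These mice are others than those on H2O. No slide held readable cortex arrays of both genotypes here, so slide and genotype cannot be told apart. WT MSX-3 cortex arrays read -0.21, -0.02, 0.00, 0.01 and 0.42 on Gfap A_52_P52303, and APP/PS1 MSX-3 arrays ran from 2.40 over 2.85 to 3.24. This difference was 2.80 ± 0.16 (log2, SE), or 6.96-fold (adjusted p = 1.47e-06). On the other Gfap probe the WT arrays read -1.18, -1.14, -0.66, -0.64 and -0.42 and the APP/PS1 arrays ran from 1.89 over 2.19 to 2.63, a difference of 3.00 ± 0.17 or 8.01-fold (adjusted p = 1.47e-06).

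Vim read -0.24, -0.01, 0.09, 0.41 and 0.52 in WT MSX-3 cortex and ran from 0.62 over 0.97 to 1.03 in APP/PS1 MSX-3 cortex. The gap between the groups was narrow, and the difference of 0.75 ± 0.14 was 1.68-fold (adjusted p = 0.0188). All 6 APP/PS1 arrays were scanned on day 1, as were 3 of the WT arrays, those with the higher Vim levels. Within day 1 the groups still did not overlap, at a difference of 0.56, which did not pass with the day as a block (adjusted p = 0.0963). Without mouse 283 or without mouse 303 the adjusted p was 0.0503 and 0.056. For Nes the difference was 0.04, with an interval from -0.21 to 0.28, and for Synm A_51_P404875 it was 0.04, from -0.31 to 0.40.

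In the hippocampus of H2O mice the genotypes lay closer together. Only the A_55_P2157250 probe of Gfap passed, against 0.378% of all 38128 probes tested there. It ran from 1.28 over 1.45 to 1.66 on the 6 WT arrays and from 2.09 over 2.51 to 2.65 on the 6 APP/PS1 arrays. The groups did not overlap, as for 1.24% of all probes, and differed by 0.96 ± 0.11 (log2, SE) or 1.95-fold (adjusted p = 0.000936). With the slide as a block, this difference was 0.85 and did not pass (adjusted p = 0.398).

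On A_52_P52303 WT mice ran from 2.27 over 2.65 to 2.83 and APP/PS1 mice from 2.76 over 3.30 to 3.57. All APP/PS1 arrays but 1 were above all WT arrays, and the difference of 0.69 ± 0.15, or 1.62-fold, missed the threshold (adjusted p = 0.0693). Leaving out mouse 255, the lowest of the APP/PS1 mice, gave 0.79 with an adjusted p of 0.0173, and a fit over all 4 hippocampus groups gave an adjusted p of 0.00313. Of 29 other settings, these included, only 6 gave a call for this probe by limma. Its difference ran from 0.48 to 0.79 and its adjusted p from 0.00313 to 0.89. All APP/PS1 H2O hippocampus arrays and only 2 of the WT arrays were scanned on day 1, and within that day the differences of the Gfap probes were 0.58 and 0.998. The ranges did not overlap there, which says little with 2 WT arrays.

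Vim ran from 0.59 over 0.73 to 0.90 in WT H2O hippocampus and from 0.87 over 1.16 to 1.58 in APP/PS1 H2O hippocampus. APP/PS1 mice were mostly above the WT range (5 of 6), but the difference of 0.44 ± 0.11 (log2, SE), or 1.36-fold, did not pass (adjusted p = 0.14). Nes differed by 0.08, with an interval from -0.10 to 0.27, and Synm A_51_P404875 by 0.16, from 0.01 to 0.32 (adjusted p = 0.464).

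In the hippocampus of MSX-3 mice both Gfap probes rose, against 0.315% of all probes called. On A_52_P52303 WT mice ran from 2.61 over 2.70 to 2.86 and APP/PS1 mice from 3.34 over 3.49 to 3.80, a difference of 0.80 ± 0.09 (log2, SE) or 1.74-fold (adjusted p = 0.00149). On A_55_P2157250 they ran from 1.62 over 1.80 to 1.98 and from 2.21 over 2.63 to 2.72, a difference of 0.75 ± 0.11 or 1.68-fold (adjusted p = 0.00823). Neither probe overlapped between the genotypes, as for 0.693% of all probes, and within day 1 and day 2 the differences of A_52_P52303 were 0.68 and 1.03. With the slide as a block neither passed (adjusted p = 0.0919 and 0.138).

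Vim overlapped between the genotypes of MSX-3 hippocampus, from 0.57 over 0.98 to 1.06 in WT and from 0.82 over 1.01 to 1.31 in APP/PS1 mice, and its difference of 0.17 had an interval from -0.08 to 0.43 (adjusted p = 0.959). Nes and both Synm probes gave differences from -0.07 to -0.05.

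**Figure D2:**
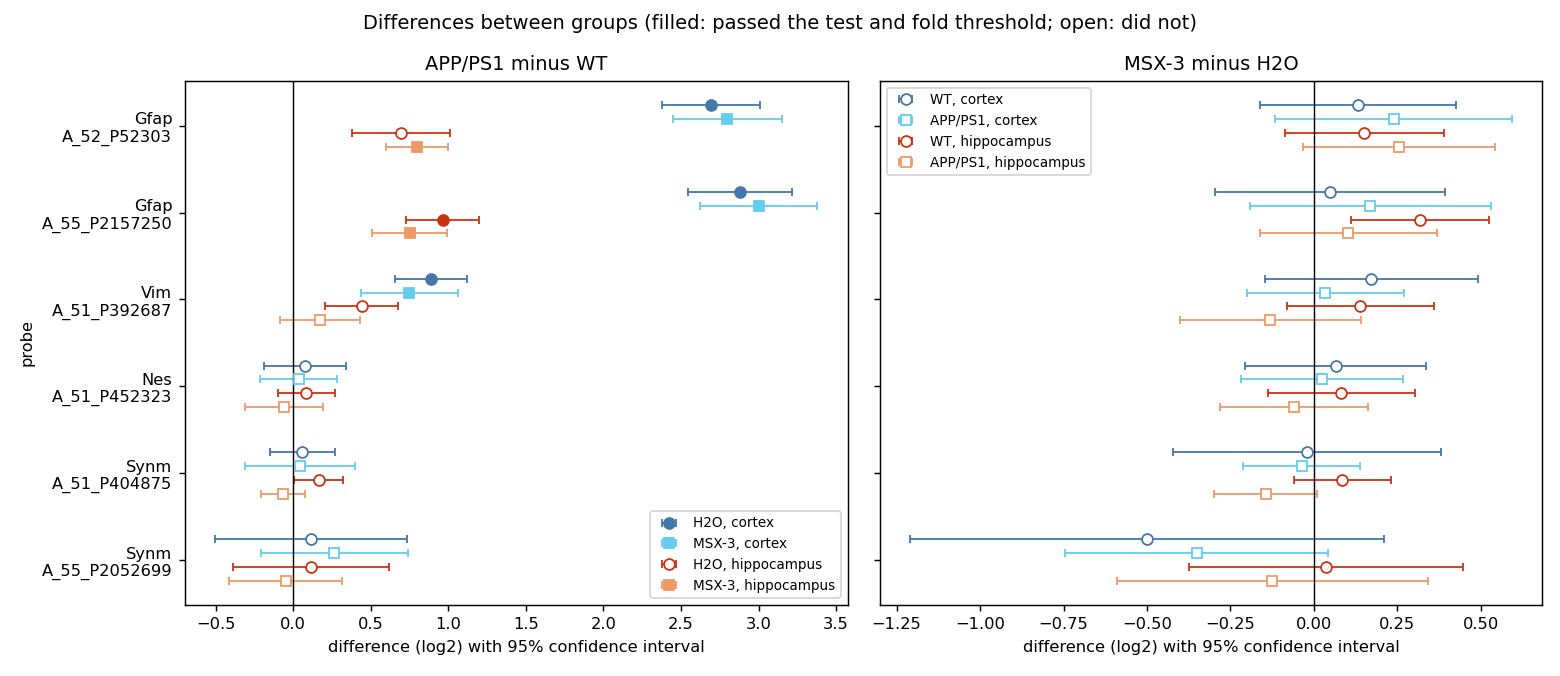
Differences between groups (horizontal axis, log2, with 95% confidence interval) for the 6 probes, left APP/PS1 minus WT and right MSX-3 minus H2O, with filled symbols for differences that passed the test and the minimum fold. Gfap differed by 2.69 to 3.00 between genotypes in the cortex and by 0.69 to 0.96 in the hippocampus, and no MSX-3 difference passed.

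The genotype effect on Gfap was larger in the cortex. Tested directly, by subtracting the APP/PS1 minus WT difference of the hippocampus from that of the cortex, both Gfap probes passed on H2O, against 0.259% of the 39065 probes tested, and on MSX-3, against 0.174%. On H2O the excess of the cortex was 1.999 ± 0.21 for A_52_P52303 (log2, SE, adjusted p = 2.9e-05) and 1.92 ± 0.19 for A_55_P2157250 (adjusted p = 1.21e-05). On MSX-3 it was 2.002 ± 0.18 and 2.25 ± 0.20 (adjusted p = 2.83e-06 for both). For Vim it was 0.45 ± 0.15 and 0.58 ± 0.18, in favor of the cortex in both, and did not pass (adjusted p = 0.696 and 0.543). For Nes it was -0.01 and 0.09, with intervals from -0.31 to 0.29 and from -0.24 to 0.43.

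The tissues started from unlike levels of the same probes in WT mice. In WT H2O mice, Gfap and Vim were lower in the cortex than in the hippocampus, and 3 of the 6 probes passed, against 15.8% of all probes. The Gfap difference was -2.67 ± 0.13 (log2, SE) on A_52_P52303, a level 6.35-fold higher in the hippocampus, and -2.34 ± 0.10 on A_55_P2157250, or 5.06-fold (adjusted p = 7.68e-08 and 2.65e-08). For Vim it was -0.76 ± 0.08, or 1.70-fold higher in the hippocampus (adjusted p = 3.44e-05). Synm A_51_P404875 was also lower on every cortex array than on any hippocampus array, by 0.38 on average, under the minimum fold (difference -0.38, adjusted p = 0.00702). These 4 probes did not overlap between the tissues of WT H2O mice, as for 19.2% of all probes. Nes leaned the other way, at 0.19 with an interval from -0.05 to 0.44.

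In APP/PS1 H2O mice the tissues differed less in Gfap. Of the 6 probes, 1 passed, against 15% of all probes. It was Gfap A_52_P52303 at -0.67 ± 0.16 (log2, SE), or 1.59-fold higher in the hippocampus (adjusted p = 0.00597). With the scan day as a block the difference was -0.58, under the minimum fold, and with the slide as a block it was -0.39 and did not pass (adjusted p = 0.114). The other Gfap probe gave -0.42 and Vim -0.32, both with overlap (adjusted p = 0.0598 and 0.0776). Synm A_51_P404875 gave -0.48 ± 0.08, a 1.40-fold difference that was again under the minimum fold (adjusted p = 0.000517), with no overlap between the tissues, as for 19.3% of all probes.

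The 8 groups were ordered by their mean level for each probe, which gave 7 pairs of neighbours per probe. For Gfap the 2 WT cortex groups were lowest, with means of -0.10 ± 0.18 (SD, n = 5) on H2O and 0.04 ± 0.23 (SD, n = 5) on MSX-3 for A_52_P52303. Next came WT H2O hippocampus at 2.57 ± 0.24 (SD, n = 6), APP/PS1 H2O cortex at 2.60 ± 0.29 (SD, n = 6), WT MSX-3 hippocampus at 2.72 ± 0.10 (SD, n = 6) and APP/PS1 MSX-3 cortex at 2.84 ± 0.31 (SD, n = 6). The highest were APP/PS1 hippocampus on H2O at 3.27 ± 0.28 (SD, n = 6) and on MSX-3 at 3.52 ± 0.17 (SD, n = 6). The step above the WT cortex groups was the only one free of overlap on this probe, on the other Gfap probe and on Vim. On A_55_P2157250 the WT H2O hippocampus mean of 1.48 ± 0.14 (SD, n = 6) was below the APP/PS1 H2O cortex mean of 2.03 ± 0.34 (SD, n = 6).

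For Vim the order ran from WT cortex on H2O at -0.02 ± 0.10 (SD, n = 5) and on MSX-3 at 0.15 ± 0.31 (SD, n = 5) to APP/PS1 H2O hippocampus at 1.18 ± 0.24 (SD, n = 6). Synm A_51_P404875 had cortex means of 0.65 to 0.73 and hippocampus means of 1.05 to 1.22, and its only neighbours free of overlap were those on either side of this step. Nes had its 4 cortex groups above its 4 hippocampus groups, from -1.32 to -1.03, and all neighbours overlapped. All neighbours overlapped on the dim Synm probe as well.

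MSX-3 against H2O was compared in WT and in APP/PS1 mice of each tissue. No filament probe passed, as did 0% of all probes in each of the 4 comparisons by limma. At an unadjusted p under 0.05 stood 3272 probes in WT cortex, 2155 in APP/PS1 cortex, 1932 in WT hippocampus and 1465 in APP/PS1 hippocampus. Among the 6 member probes in the 4 comparisons, Gfap A_55_P2157250 in WT hippocampus was the only one of these, with a difference of 0.32 ± 0.10 (log2, SE, limma, unadjusted p = 0.00582, adjusted p = 0.959). WT MSX-3 mice ran there from 1.62 over 1.80 to 1.98 and WT H2O mice from 1.28 over 1.45 to 1.66, and 4 of 6 MSX-3 mice were above all H2O mice. In WT cortex the number of probes called over the whole array depended on the setting. With array weights the dim Synm probe passed there, at -0.82 (limma, adjusted p = 0.0337).

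In APP/PS1 mice the MSX-3 difference of Gfap A_52_P52303 was 0.24 in the cortex, with an interval from -0.12 to 0.59, and 0.25 in the hippocampus, from -0.03 to 0.54. For Vim it was 0.03, from -0.20 to 0.27, and -0.13, from -0.40 to 0.14. A rise of Gfap by as much as 0.5 (log2) lies within these intervals. The interaction of genotype and agent passed for no member and for 0% of all probes in either tissue. An unadjusted p under 0.05 was found for 1794 of 37680 probes in the cortex and 1869 of 38128 in the hippocampus. Of the members, Synm A_51_P404875 in the hippocampus was the only one of these, at -0.23 ± 0.09 (log2, SE, adjusted p = 0.897).

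Since 2 Gfap probes were measured on every array, their difference (A_52_P52303 minus A_55_P2157250, log2) was compared between groups by exact permutation, a test chosen after the values were seen. In the hippocampus on H2O it was 0.82 ± 0.15 (SD, n = 6) in APP/PS1 and 1.09 ± 0.24 (SD, n = 6) in WT mice (two-sided exact p = 0.0455, adjusted over 6 comparisons 0.136). On MSX-3 it was 0.97 ± 0.15 and 0.92 ± 0.12 (SD, n = 6 each, exact p = 0.554). In the cortex on H2O it was 0.57 ± 0.15 (SD, n = 6) and 0.76 ± 0.28 (SD, n = 5, exact p = 0.19). Between the tissues of APP/PS1 H2O mice, 0.57 in the cortex stood against 0.82 in the hippocampus (exact p = 0.0238, adjusted 0.136), and between those of WT H2O mice 0.76 against 1.09 (exact p = 0.0736, adjusted 0.147). None of the 6 comparisons passed after adjustment.

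Members were set against each other over the 12 APP/PS1 mice of a tissue, after removal of the mean of each agent, in 16 relations. Gfap and Vim in the cortex had the highest correlation (Pearson r = 0.73, permutation p = 0.00695, adjusted 0.111; Spearman rho = 0.70, permutation p = 0.014, adjusted 0.224). Without the 2 mice farthest from the median of Gfap, r was 0.69. With the means of the scan days removed too, r was 0.79 (permutation, adjusted p = 0.0317), and within day 1 alone it was 0.79 over 11 mice (adjusted p = 0.0401 over 12 relations). Only mouse 255 had its cortex array scanned on day 2, so both values rest on the same 11 mice. By rho neither passed (adjusted permutation p = 0.0952 and 0.173). In the hippocampus Gfap and Vim gave r = 0.19 (permutation p = 0.551, adjusted 0.732) and rho = 0.16 (permutation p = 0.619, adjusted 0.619).

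Gfap in the cortex against Gfap in the hippocampus of the same mice gave r = 0.63 and rho = 0.55 (permutation p = 0.0253 and 0.066, adjusted 0.186 and 0.273). With the scan day means removed, r was 0.10. Vim and Nes in the hippocampus gave r = 0.61 and rho = 0.60 (permutation p = 0.0349 and 0.0424, adjusted 0.186 and 0.273), and r = 0.40 without the 2 farthest mice. No relation passed after adjustment before the scan day means were removed. Among the remaining relations the highest r was 0.58, for Vim and Synm in the cortex (adjusted permutation p = 0.199). Their rho was 0.35 (permutation p = 0.265, adjusted 0.55), and r was 0.18 without the 2 farthest mice, so that it rests on those mice.

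**Figure D3:**
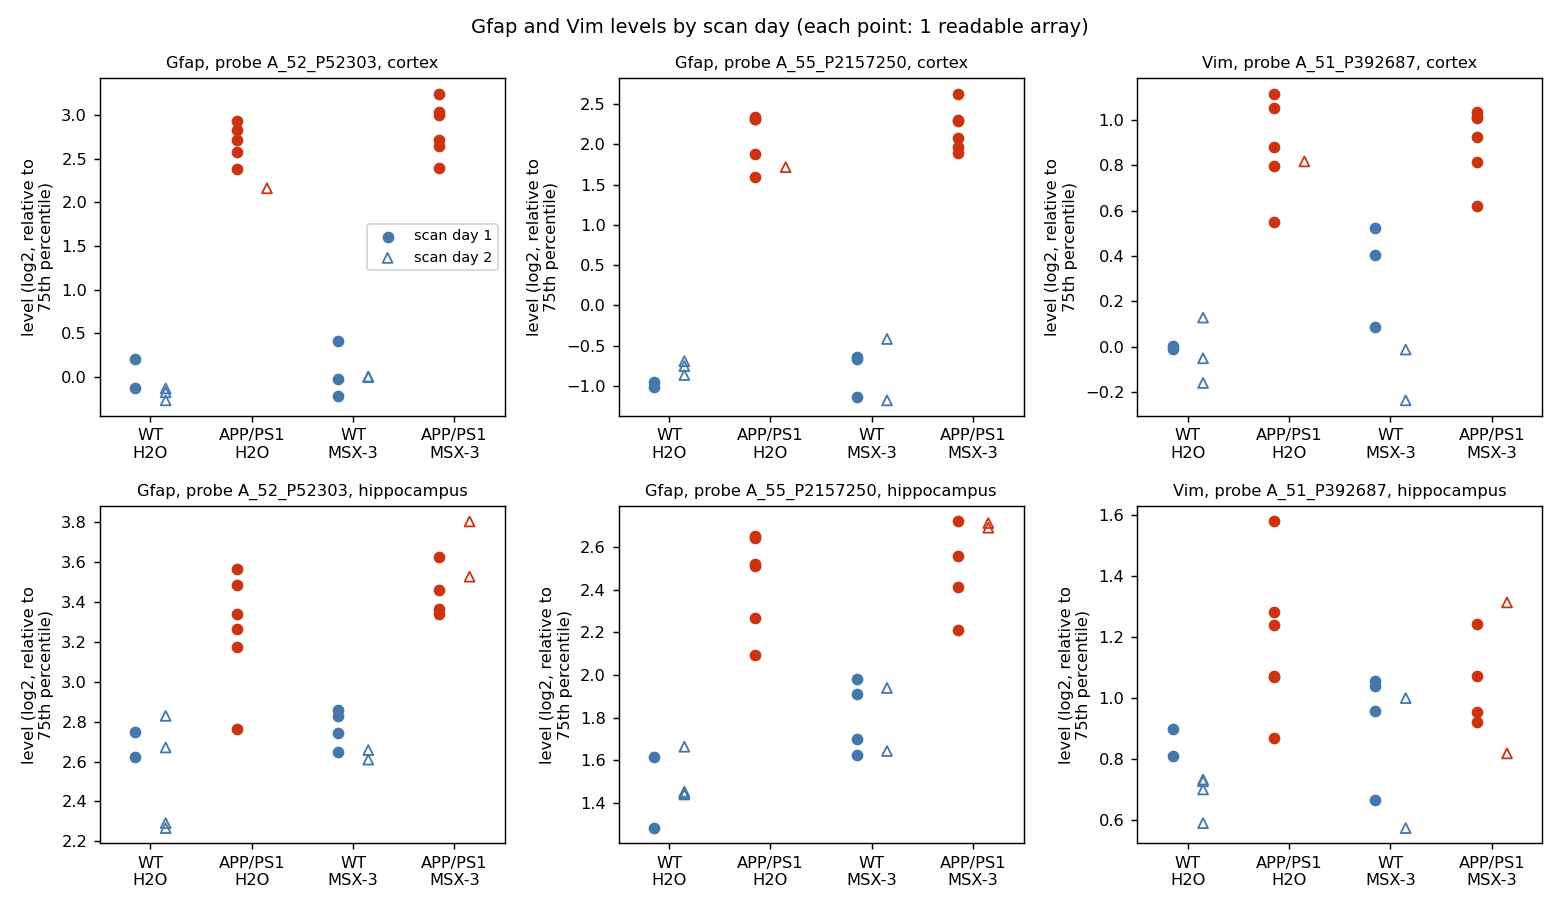
Levels of both Gfap probes and of Vim (vertical axis, log2 relative to the 75th percentile) in the 4 groups of each tissue, with arrays of scan day 1 as filled circles and of day 2 as open triangles. Gfap stands apart between the genotypes of the H2O cortex on both days, with 1 APP/PS1 array on day 2, and no APP/PS1 MSX-3 cortex array was scanned on day 2. The WT MSX-3 cortex arrays of day 2 hold the lowest Vim levels of that group, -0.24 and -0.01.

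Other genes around the filaments were taken from lists, with 1 probe a gene. The share of all probes called between the genotypes stands beside the counts of every list. It was 1.48% in the cortex and 0.378% in the hippocampus on H2O, and 1.42% and 0.315% on MSX-3. Of the other intermediate filament genes, such as the neurofilament and lamin genes, 0 of 12 passed in the cortex and 0 of 13 in the hippocampus of H2O mice by limma, with medians of -0.04 and 0.05 (log2) against -0.03 for all probes of either tissue. Nefl, a neurofilament subunit of neurons, differed by -0.06, and Lmna, a nuclear lamin, by 0.06 in the cortex. Of the filament partners, which crosslink, fold, cut or modify filaments, 0 of 11 passed in either tissue, with medians of 0.06 and 0.05. Padi2, an enzyme that citrullinates filament proteins, had an adjusted p of 0.00927 in the H2O cortex at 0.54 ± 0.09 (log2, SE), or 1.45-fold, under the minimum fold, and gave 0.26 ± 0.10 in the H2O hippocampus (adjusted p = 0.404). Plec, the crosslinker plectin, gave -0.01 in the cortex, and Cryab, a small heat shock protein, gave 0.05.

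Signals through gp130 and STAT3 are known to raise Gfap. Of 17 such genes measured in the H2O cortex, 1 rose and 0 fell, with a median of 0.04. It was Osmr, the receptor of oncostatin M, at 1.42 ± 0.23 (log2, SE) or 2.67-fold (adjusted p = 0.0048). Its ligand Osm did not pass (adjusted p = 0.109), and its probe was well above background on 3 of 5 WT and 4 of 6 APP/PS1 H2O cortex arrays. Stat3, the factor downstream, gave 0.47 ± 0.13 (adjusted p = 0.118). In the MSX-3 cortex 3 of 17 rose. They were Osmr at 1.20 ± 0.10, Stat3 at 0.73 ± 0.15 (adjusted p = 3.64e-05 and 0.0289) and Osm (adjusted p = 2.92e-05), for which no fold is given, since its probe was well above background on 0 of 5 WT and 4 of 6 APP/PS1 arrays. In the hippocampus 0 of 16 passed on H2O and 1 of 16 on MSX-3, Osmr at 0.77 ± 0.11 (adjusted p = 0.00955).

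Of 29 reactive astrocyte genes measured in the H2O cortex, 8 rose and 0 fell, with a median of 0.40, against 1.48% of all probes called. Cxcl10, a chemokine, differed by 4.83 ± 0.52 (log2, SE), with its probe well above background on 2 of 5 WT and 6 of 6 APP/PS1 arrays. The next largest were Cd14, a receptor shared with microglia, at 1.78 ± 0.14, Osmr, and Psmb8, an immunoproteasome subunit, at 1.27 ± 0.14. In the H2O hippocampus 6 of 30 rose and 0 fell, with a median of 0.24, among them Cxcl10 at 2.51 ± 0.33, Aspg at 0.82 ± 0.10, Psmb8 at 0.79 ± 0.13 and Cd14 at 0.75 ± 0.07. Lcn2, often named as a marker of reactive astrocytes, differed by 0.05 ± 0.21 in the cortex and -0.41 ± 0.39 in the hippocampus. On MSX-3, 9 of 29 rose in the cortex and 4 of 30 in the hippocampus. Of genes that astrocytes use in general, 0 of 16 passed in each of the 4 genotype comparisons. Their summed linear level ran from 400 to 455 in APP/PS1 H2O cortex and from 378 to 426 in WT H2O cortex. In whole tissue, more cells of a type and more RNA per cell cannot be told apart.

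Some microglial genes also rose in APP/PS1 mice, and their relation to the filament genes across mice was not tested. In the H2O cortex 6 of 10 rose, with a median of 0.88, the largest being C1qa and C1qb, subunits of complement, at 1.39 ± 0.14 and 1.23 ± 0.14 (log2, SE), and Aif1 rose by 1.07 ± 0.08. Defining microglial genes such as Cx3cr1 were well above background on all arrays, and the summed linear level of the list ran from 309 to 365 in APP/PS1 and from 246 to 366 in WT H2O cortex. In the H2O hippocampus 2 of 10 rose, C1qa at 0.81 ± 0.10 and C1qb at 0.73 ± 0.11. In the MSX-3 groups 6 of 10 rose in the cortex and 1 of 10 in the hippocampus. The part of microglia in the Vim difference was not tested.

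Markers of other cells that use Vim or Nes gave 0 calls in the H2O cortex and 0 in the H2O hippocampus by limma: 10 endothelial genes, 10 of mural cells, 8 of meninges and fibroblasts, 5 or 6 of ependyma and 5 of neural progenitors and new neurons. Endothelial genes had medians of 0.06 and 0.19, meningeal genes of 0.24 and 0.36, and ependymal genes of -0.04 and 0.36 in cortex and hippocampus. Genes of the choroid plexus, 0 of 7 called in the hippocampus with a median of -0.997, varied widely between hippocampus arrays. Their summed linear level ran from 1.55 to 211 in APP/PS1 and from 1.37 to 212 in WT H2O mice. The medians were far apart, at 3.46 in APP/PS1 and 76.5 in WT H2O mice, and were 5.36 and 5.00 on MSX-3. The part of choroid plexus in the hippocampal levels and differences was not tested. Neurons and oligodendrocytes gave 0 of 8 in both tissues.

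**Figure D4:**
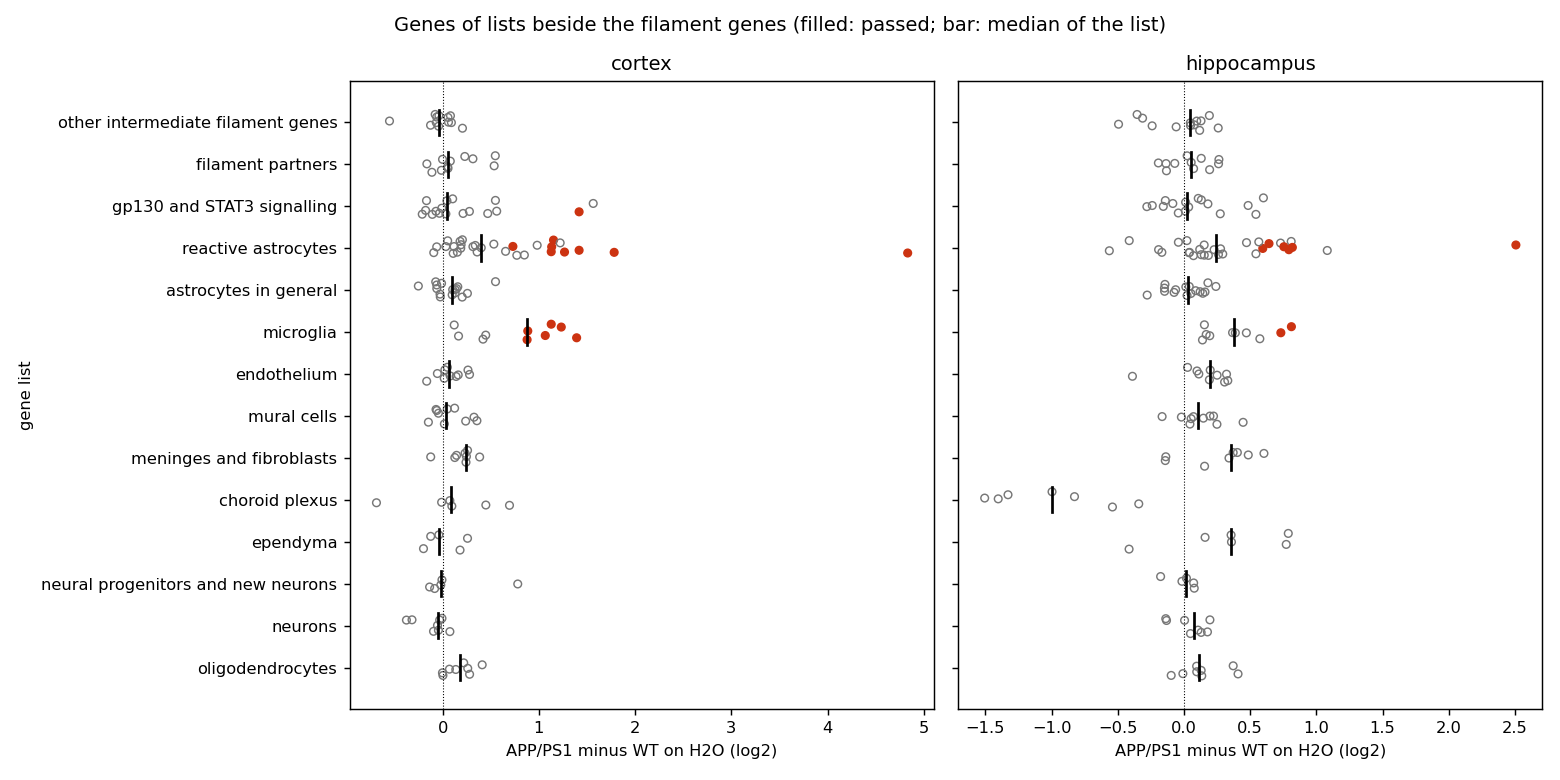
APP/PS1 minus WT difference on H2O (horizontal axis, log2) of each measured gene of 14 lists in cortex and hippocampus, filled red where the gene passed, with the median of each list as a bar. In the cortex, calls lie in the reactive astrocyte list (8 of 29), the microglial list (6 of 10) and Osmr of the gp130 list, and the other lists hold none.

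The genes most like a member were named by their correlation over all readable arrays of a tissue, a description in which the arrays share genotype groups. Since the WT and APP/PS1 levels of Gfap form 2 clusters in the cortex, the correlation left after removal of the group means is given too. In the cortex, over 22 arrays, Gfap A_52_P52303 was most like Tlr2 (0.99, and 0.65 after removal of group means), C4b (0.99 and 0.51), Prnp (0.99 and 0.47), Hvcn1 (0.99 and 0.56) and Ctss (0.98 and 0.49). In the hippocampus, over 24 arrays, it was most like Ly86 (0.91 and 0.44), Hvcn1 (0.91 and 0.45), Grn (0.90 and 0.63), Cd68 (0.89 and 0.35) and Hcst (0.89 and 0.35).

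Vim was most like Rab3il1 (0.96, and 0.75 after removal of group means), Msn (0.95 and 0.72), Ctsh (0.95 and 0.74), Arpc1b (0.95 and 0.69) and Bcl3 (0.95 and 0.63) in the cortex. In the hippocampus it was most like the histocompatibility genes H2-T-ps (0.84 and 0.73) and H2-K1 (0.83 and 0.75), followed by Syngr2 (0.83 and 0.72), Parp9 (0.82 and 0.66) and Gm11127 (0.80 and 0.64). Nes was nearest to Skil (0.75 and 0.76) in the cortex and Uaca (0.64 and 0.64) in the hippocampus, and Synm to Ncoa6 (0.86 and 0.91) and Stim1 (0.79 and 0.69).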

How the data were processed

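Deposited scanner files held spot intensities from Agilent Feature Extraction 10.7.3.1, from which the authors' scanner software had subtracted background, with no normalization between arrays. The deposited intensity values of the series matrix were the same at all 3022848 spots (relative tolerance 1e-06). The authors' methods used the 75th percentile, a background filter, a moderated test, BH correction and a minimum fold of 1.5, which were redone here with limma 3.58.1 (lmFit, eBayes) under R 4.3.3 with the data.table package (version 1.17.8). Figures used matplotlib.

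The 3671 control spots of 62976 and spots flagged as outliers were left out. Levels were log2 intensity minus the 75th percentile of the array, averaged over spots of a probe. Deposited columns with background flags, which have no scale and were read as other values, set the filter: within a tissue, probes stayed in if 4 or more arrays of 1 group had them well above background, leaving 37680 probes in cortex and 38128 in hippocampus. RefSeq (GRCm38.p6) named 32994 probes through the transcript accessions of the files. Each fit held the arrays of the compared groups only, and BH ran over all probes kept. Comparisons between the tissues of 1 genotype, and of the genotype effect between tissues, used all 39065 probes kept in either tissue. The fits were tested on simulated data.

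A gene of a list was given by its kept probe with the highest mean. Listed genes were named when called in APP/PS1 against WT on H2O (at most 4 by size in a list and tissue) or as leading markers of a cell type. Other listed genes (Nefl, Lmna, Padi2, Plec, Cryab, Osm, Stat3 and Lcn2) were named after their values were seen. Relations used 1e+05 permutations, two-sided, whose smallest p is 1e-05. Alternatives were normexp with an offset of 50, run on median intensities, quantile normalization, other percentiles and filters, all 48 arrays, intensity trend, array weights, all 4 groups in a fit, slide and scan day as blocks, the mouse as a block between tissues, no minimum fold, and leaving out each mouse. All 4 groups with a slide or day block, and probes kept in both tissues, were added after the data were seen. The members and lists were chosen with earlier results of these data known.

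The mouse number pairs the tissues, since they come from the same mice. With group means taken out, cortex and hippocampus of a mouse correlated with a median of 0.04 over 22 mice, from -0.52 to 0.50.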

Additional observations from a re-analysis of the deposited data

Results flagged for a closer look

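The genotype effect on Gfap differed between the tissues by a direct test. On H2O the excess of the cortex was 1.999 (log2) on probe A_52_P52303 and 1.92 on A_55_P2157250. On MSX-3 it was 2.002 and 2.25. Group means behind the first value were 2.60 and -0.10 in APP/PS1 and WT cortex and 3.27 and 2.57 in hippocampus. Dixon's test was run for each of the 6 probes in each of the 8 groups of 5 or 6 arrays, 48 tests that share arrays. In 0 of them an array stood apart. A single such test by chance marks an array in about 1 of 20 cases.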

How the results depend on the processing

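Of 2442 probe values computed under other settings or within a scan day, 2410 stayed on the same side of the threshold or moved by less than the spread between arrays, 11 lost their call, 9 gained one, and 12 values within a scan day, which have no test, moved further. The sign turned in 106 of the 1926 values that were not called as reported, none of them called under the other setting, and no called value turned. In APP/PS1 against WT on H2O in hippocampus, 1 member passed, and 2 passed under normexp, an intensity trend, array weights, all 4 groups in the fit, and all 4 groups with the scan day as a block. Leaving out each mouse gave 1 to 2, the latter without mouse 255, and the slide as a block gave 0. In MSX-3 hippocampus the slide as a block gave 0 of the 2 reported. In MSX-3 cortex it could not be fitted, since no slide held readable arrays of both genotypes. In cortex against hippocampus of APP/PS1 H2O mice, 1 passed, against 0 with the slide (Gfap A_52_P52303 at -0.39, adjusted p = 0.114) or the scan day as a block and 2 with no minimum fold. In MSX-3 against H2O in WT cortex, array weights gave 1, the dim Synm probe at -0.82 (adjusted p = 0.0337). Of the relations, 0 passed, and 1 passed by Pearson's r alone with scan day means removed or within day 1, Gfap and Vim in cortex. These 2 settings rest on the same mice for this relation. The setting with all 48 arrays adds the 2 WT cortex arrays with no located grid, whose 75th percentiles of intensity were 2.41 (MSX-3) and 3.03 (H2O). There the Vim call was lost on H2O (limma, adjusted p = 0.0653) and on MSX-3 (0.484). The other values named beside the results complete the lost calls, with a cause that was not tested. With the mouse as a replicate block, the Gfap difference between cortex and hippocampus effects kept its call in both agents. Probes called over the whole array ranged from 51 to 1043 on H2O cortex (559 reported), 30 to 697 on MSX-3 cortex (536), 2 to 185 on H2O hippocampus (144), 45 to 150 on MSX-3 hippocampus (120) and 0 to 2998 for MSX-3 against H2O in WT cortex. For the genotype effect between tissues they ranged from 3 to 164 on H2O (101), with 46, 47, 51, 52, 54 and 65 without mouse 56, 325, 308, 81, 255 and 259, and from 5 to 124 on MSX-3 (68), with 37, 42, 44 and 45 without mouse 281, 267, 283 and 49. Between the tissues they ranged from 1882 to 10161 in WT (6181) and from 3357 to 12037 in APP/PS1 H2O mice (5876), the highest without a minimum fold. In MSX-3 against H2O in APP/PS1 hippocampus 1 probe was called without mouse 281, against 0. With array weights 700 of the 1043 were higher, and with the slide as a block 477 of 759, against 506 of 559. With all 48 arrays the median of all probes moved to -0.20 on H2O and -0.29 on MSX-3 cortex (log2). Levels of the dim Synm probe are limited by its signal over background.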
